A study of Mus musculus with 9 samples.

Results

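Interferon-stimulated genes are described here across 9 RNA-seq libraries of mouse ear. The 38 genes were taken from a list of symbols and found in the count matrix through their Ensembl gene identifiers. All 38 matched, and all 38 were among the 21925 genes, of 55401 features, that held enough counts to be tested. The libraries were made from ears of C57 mice. Of these, 3 came from mice given MC903 together with paeonol at 200 mg/kg, 3 from mice given MC903 and 3 from controls that received absolute ethyl alcohol. MC903, or calcipotriol, is a synthetic relative of vitamin D that inflames mouse skin and serves as a trigger of atopic-dermatitis-like lesions. Paeonol is a phenol from the root bark of peonies. There was no group with paeonol and without MC903. The labels give no vehicle for paeonol in the MC903 mice, and neither age nor sex, so an effect of such a vehicle and one of paeonol cannot be told apart. The labels also do not say whether each library came from its own animal, so p-values measure the spread between these libraries, which may be technical.

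Interferons are secreted by cells that sense foreign or misplaced nucleic acid, and by activated T and natural killer cells in the case of interferon gamma. Type I and type III interferons act through JAK1 and TYK2 and a complex that holds STAT2 and IRF9 and binds interferon-stimulated response elements. Interferon gamma acts through JAK1 and JAK2, and its response is read at gamma-activated sequences. Most genes of the list answer to both kinds, whereas the chemokines CXCL9 and CXCL10 and the guanylate-binding and immunity-related GTPases are best known as products of the interferon gamma response. In skin, keratinocytes, macrophages, endothelium and T cells can all carry this programme.

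The regulatory letters known to be read by these factors were found in the promoters of most members. RefSeq start-site windows (GRCm38.p6, 250 bases before to 50 after the start) were at hand for 29 of the 38 genes. The response-element core, searched on both strands as the letters GAAA repeated after any 2 bases, was present in 20 of the 29, or 69.0%, against 3.99% of 27025 genes with a window. The gamma-activated sequence TTCNNNGAA was present in 7 of the 29, or 24.1%, against 9.55% of those genes. A match is a description of the letters and not a bound site. The 250 bases before the start are shown 5′ to 3′ for Gbp2, the member called lower with paeonol, for Oas1a and Oas3, the pair with the largest called differences between MC903 and control, and for Igtp and Ifit3b, a GTPase and an IFIT gene with opposite signs under paeonol that were chosen after their values were seen. Capitals mark both motifs. The windows lie at chr3:142620413-142620662 on the plus strand for Gbp2, chr5:120907526-120907775 on the minus strand for Oas1a, chr5:120777660-120777909 on the minus strand for Oas3, chr11:58199306-58199555 on the plus strand for Igtp and chr19:34607707-34607956 on the plus strand for Ifit3b.
Gbp2: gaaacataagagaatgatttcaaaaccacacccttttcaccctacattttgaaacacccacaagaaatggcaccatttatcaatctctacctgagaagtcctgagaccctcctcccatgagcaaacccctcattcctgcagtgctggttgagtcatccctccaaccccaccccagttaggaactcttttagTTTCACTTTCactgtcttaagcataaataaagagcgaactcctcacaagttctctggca
Oas1a: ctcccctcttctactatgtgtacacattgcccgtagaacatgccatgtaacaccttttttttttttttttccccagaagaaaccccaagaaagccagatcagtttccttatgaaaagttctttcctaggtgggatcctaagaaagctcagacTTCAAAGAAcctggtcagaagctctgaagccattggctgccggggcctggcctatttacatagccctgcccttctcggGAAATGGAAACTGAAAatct
Oas3: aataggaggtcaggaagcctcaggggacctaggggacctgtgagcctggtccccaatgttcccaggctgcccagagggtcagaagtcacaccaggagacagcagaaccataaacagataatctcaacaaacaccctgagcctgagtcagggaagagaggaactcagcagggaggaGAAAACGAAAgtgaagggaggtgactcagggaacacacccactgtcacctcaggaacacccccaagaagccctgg
Igtp: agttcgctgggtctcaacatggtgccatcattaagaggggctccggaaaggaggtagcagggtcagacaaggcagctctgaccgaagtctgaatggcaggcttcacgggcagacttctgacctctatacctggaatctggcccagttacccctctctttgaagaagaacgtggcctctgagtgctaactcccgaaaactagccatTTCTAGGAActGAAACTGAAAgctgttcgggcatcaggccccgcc
Ifit3b: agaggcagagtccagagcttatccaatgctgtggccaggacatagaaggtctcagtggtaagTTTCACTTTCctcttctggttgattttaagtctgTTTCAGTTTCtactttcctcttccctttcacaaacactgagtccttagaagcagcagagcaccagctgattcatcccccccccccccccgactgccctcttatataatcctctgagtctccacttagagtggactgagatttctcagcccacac

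The core began 59 bases before the start in Gbp2, 75 before it in Oas3 and 34 before it in Igtp. Oas1a held a pair of overlapping matches at 20 and 14 bases before the start and a gamma-activated sequence at 98. Igtp held a gamma-activated sequence at 45 bases before the start, just before its core. Ifit3b held 2 cores, at 188 and 154 bases before the start, and Ifit3 held 2 at 156 and 122.

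Library totals lay between 54264605 and 57745225 estimated counts, so depth differed little between groups. The 9 libraries were modelled together in edgeR by quasi-likelihood, and genes are described as called where the adjusted p (Benjamini-Hochberg, over all genes tested) was under 0.05. Levels are in CPM, the estimated counts scaled to a common, TMM-adjusted library size, and differences are log2 values with their standard error (SE). The groups differed widely in the rest of the transcriptome: 29.7% of the genes tested were called between MC903 with paeonol and MC903, 46.8% between MC903 and control and 30.9% between MC903 with paeonol and control. The 3 comparisons share libraries in pairs, so their results are not independent of each other.

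Within groups, 1 library of the MC903 mice and 1 of the controls stood apart in the interferon-stimulated genes. MC903 library 3 was the highest of its group in 35 of 38 members, and control library 2 was the highest of the controls in 35 of 38. Over all genes tested these libraries were the highest of their group for 33.0% and 34.7%. The median member lay 1.84-fold above the other MC903 libraries in MC903 library 3, and 1.98-fold above the other controls in control library 2, while the median over all genes lay within 0.01 on the log2 scale of the others. Control library 1 was the lowest control for 34 members, and MC903 library 2 the lowest MC903 library for 30. The libraries with paeonol were more alike. The median SD of log2 CPM over the members was 0.27 with paeonol, 0.55 in MC903 and 0.60 in control, against 0.19, 0.18 and 0.17 for all genes tested. Results are therefore also given without MC903 library 3 and control library 2. That alternative was added after the members' levels were seen. Since those levels picked the libraries, its counts, calls and adjusted p are a description and no test. Leaving out the control that was highest in most members lowers the control level and spread of these genes by construction.

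**Figure D1:**
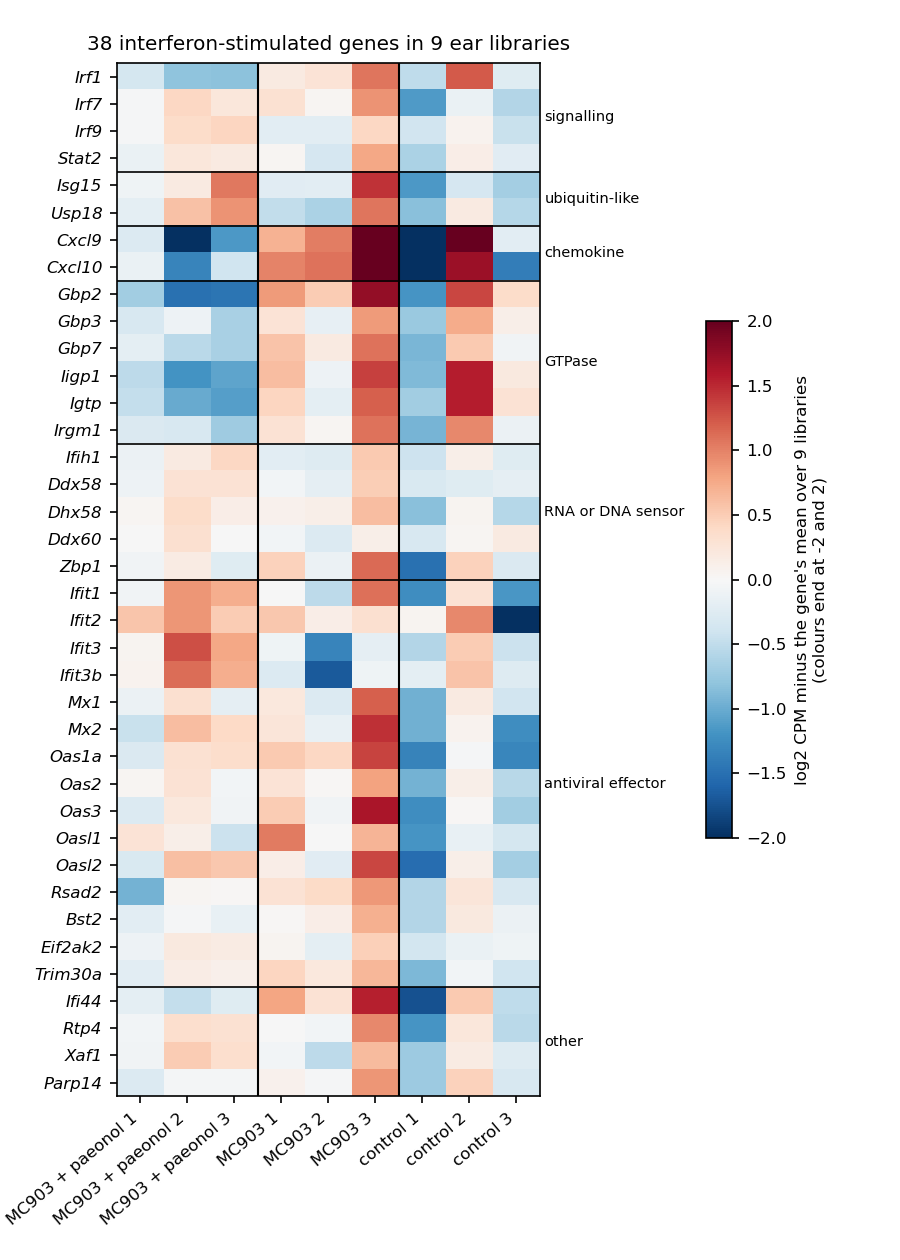
Rows are the 38 interferon-stimulated genes by role and columns the 9 libraries; colour gives log2 CPM minus the gene's mean over the 9 libraries, red higher and blue lower. MC903 3 is red in nearly every row, control 2 is mostly higher than the other controls, and the chemokine and GTPase rows are blue in the 3 libraries with paeonol.

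Between MC903 with paeonol and MC903, 1 of the 38 members was called by edgeR, Gbp2, which was lower with paeonol. That is 2.63% of the members, against 29.7% of all genes called and 14.3% called lower. The members' log2 differences ran between -2.40 and 1.23 with a median of -0.43, beside 0.00 for all genes, and 28 were negative. The unadjusted p was under 0.05 for 6 members. Groups did not overlap for 14 members that were lower with paeonol and 2 that were higher, beside 43.9% of all genes without overlap, 22.0% lower and 21.9% higher. Without MC903 library 3 and control library 2 the median was -0.01, with 19 members positive and 19 negative. In that fit 3 members were called, among 21.8% of all genes: Irf9 and Usp18 higher and Irf1 lower with paeonol.

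Between MC903 and control, edgeR called 6 members, or 15.8%, and each was higher in MC903. They were Irf7, Oas1a, Oas3, Oasl1, Trim30a and Dhx58. The share stood below the background of 46.8% called in either direction and 23.0% called higher. Differences lay between -0.62 and 1.58 with a median of 0.60, beside -0.02 for all genes, and 34 of 38 were positive. Groups did not overlap for 7 members, all higher in MC903 (Irf7, Isg15, Oas1a, Oasl1, Rsad2, Trim30a and Dhx58), beside 58.1% of all genes without overlap and 28.3% higher. Without the 2 libraries 14 members were called, among 36.7% of all genes, and these included each of the 6. All 14 were higher in MC903, and the median was 0.73. Scaling by library totals alone moved the median of all genes to -0.21 and that of the members to 0.41, and left 4 of the 6 calls. Over all genes the calls were then 3402 higher and 7224 lower, against 5044 and 5215.

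Between MC903 with paeonol and control, edgeR called 0 of the 38 members, against 30.9% of all genes, while 5 members had an unadjusted p under 0.05 and DESeq2 called 5. DESeq2 called Ddx58, Dhx58 and Irf9 higher with paeonol than in control. It called the GTPase genes Gbp2 (-1.67, adjusted p = 0.0278) and Igtp (-1.51, adjusted p = 0.0497) lower. The median difference was 0.38, beside -0.03 for all genes, and 27 members were positive. Groups did not overlap for Irf7, Isg15 and Ddx58, all 3 higher with paeonol, beside 46.4% of all genes without overlap and 22.8% higher. Without the 2 libraries 15 members were called, all higher with paeonol than in control, among 23.6% of all genes, with a median of 0.69. Of the groups compared only control lost a library there, its highest in most members, so the shift was built in by the selection. DESeq2 called 6 members between MC903 with paeonol and MC903 and 10 between MC903 and control, and its background shares in the 3 comparisons were 29.2%, 40.7% and 35.0%. Cxcl10 had no DESeq2 adjusted p in any of them.

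**Figure D2:**
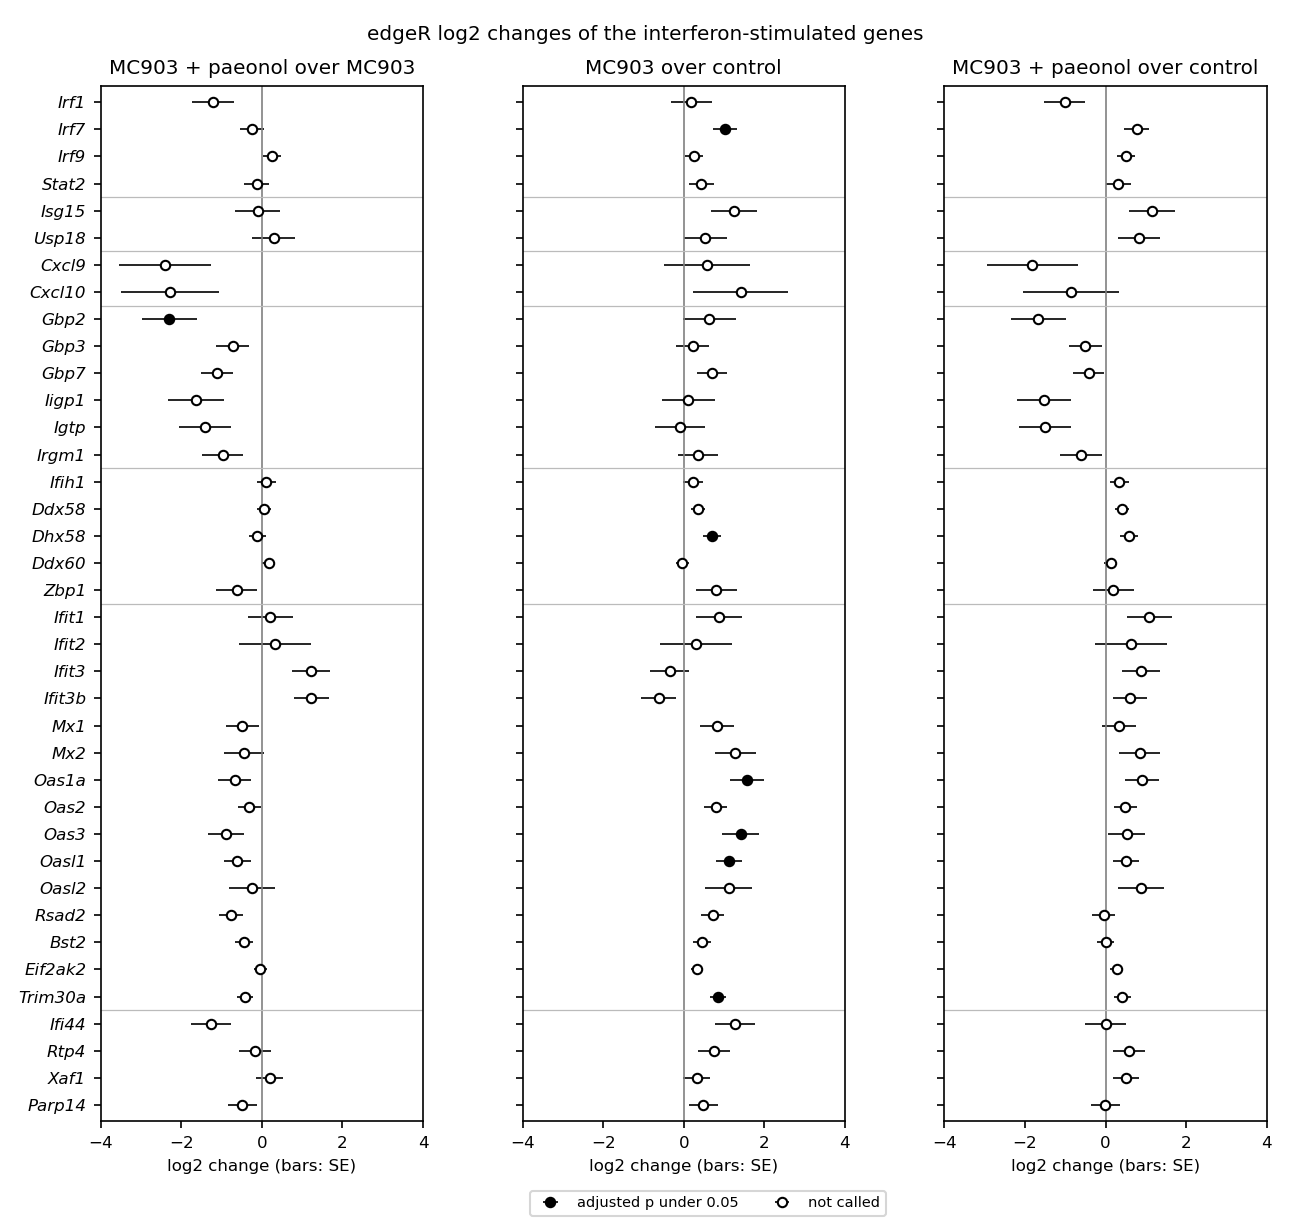
Each point is the log2 difference of 1 gene from the edgeR fit, with its SE as a bar, for MC903 with paeonol over MC903, MC903 over control and MC903 with paeonol over control; filled points passed the adjusted p threshold of 0.05 and open points did not. Chemokines and GTPases lie left of 0 in both panels with paeonol, whereas the IFIT genes lie right of 0 there.

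Among the transcription factors, Irf7 rose in MC903. Irf7 amplifies type I interferon production once it has been induced. It stood at 40.4, 54.3 and 47.7 CPM with paeonol, 50.8, 41.8 and 76.4 CPM in MC903 and 18.6, 37.4 and 27.4 CPM in control. The lowest MC903 library was above the highest control, and so was each library with paeonol. The difference between MC903 and control was 1.02 ± 0.30 (edgeR adjusted p = 0.0271), and that between MC903 with paeonol and MC903 was -0.25 ± 0.30 (edgeR adjusted p = 0.605). Irf7 lies at GRCm38 chromosome 7, 141262706 to 141266481. Its call ended under scaling by library totals, without the filter on low counts and in the fit of MC903 and control alone (edgeR adjusted p between 0.0529 and 0.063). It also ended without control library 1 or 3, MC903 library 3 or paeonol library 3 (edgeR adjusted p between 0.0523 and 0.0787), and the sign of its difference with paeonol turned without MC903 library 3 (0.03).

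Stat2 and Irf9, whose products belong to the type I complex, were not called by edgeR in any comparison and held the largest counts among such members. Stat2 stood at 91.8, 118 and 113 CPM with paeonol, 103, 79.7 and 171 CPM in MC903 and 64.9, 111 and 85.7 CPM in control. Irf9 stood at 71.6, 93.8 and 98.6 CPM with paeonol, 62.7, 63.2 and 96.6 CPM in MC903 and 55.7, 76.3 and 53.7 CPM in control. For both genes the groups overlapped in every comparison, with 1 high library in MC903 and 1 in control. The difference of Stat2 with paeonol was -0.13 ± 0.31 and turned to 0.24 without MC903 library 3. Irf9 differed from MC903 by 0.25 ± 0.22 with paeonol. It was called higher with paeonol than in control by DESeq2 (0.51, adjusted p = 0.0203) and without MC903 library 3 (edgeR adjusted p = 0.0426). Irf1, a factor induced by interferon gamma that drives antigen presentation and GTPase genes, was low with paeonol. It stood at 37.0, 27.0 and 26.9 CPM with paeonol, 53.4, 57.04 and 99.4 CPM in MC903 and 33.5, 110.3 and 39.8 CPM in control. All 3 libraries with paeonol were below all 3 of MC903. The log2 difference of -1.21 ± 0.52 did not pass with all 9 libraries (edgeR adjusted p = 0.135). Irf1 was called lower with paeonol in the edgeR fit of those 2 groups alone (-1.2, adjusted p = 0.0271). It was also called lower by edgeR without control library 2 (-1.21, adjusted p = 0.0157).

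The ubiquitin-like modifier gene Isg15, whose product is attached to many proteins during antiviral responses, was higher than control in every library of both other groups. It stood at 22.2, 26.7 and 49.0 CPM with paeonol, 20.1, 20.3 and 64.4 CPM in MC903 and 10.6, 18.7 and 14.8 CPM in control. The difference between MC903 and control was 1.25 ± 0.57 (edgeR adjusted p = 0.12) and did not pass. Usp18, which removes ISG15 and damps receptor signalling, stood at 7.84, 13.5 and 16.7 CPM with paeonol, 6.38, 5.84 and 18.9 CPM in MC903 and 5.06, 10.2 and 6.08 CPM in control. The high values of both genes in MC903 came from library 3. Without that library and control library 2, Usp18 was called higher with paeonol than in MC903, at 1.05 (edgeR adjusted p = 0.0309). The members' levels had picked those libraries, so that call is a description.

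Cxcl9 and Cxcl10, chemokines that draw T cells through CXCR3, spanned a wide range of levels within the controls. Cxcl9 stood at 11.5, 3.43 and 6.25 CPM with paeonol, 22.5, 28.2 and 61.3 CPM in MC903 and 2.70, 60.2 and 12.02 CPM in control. Cxcl10 stood at 13.95, 6.07 and 11.6 CPM with paeonol, 30.2, 32.5 and 91.7 CPM in MC903 and 1.71, 50.0 and 5.81 CPM in control. For both genes the libraries with paeonol lay below all MC903 libraries, and the controls spanned 22.3-fold for Cxcl9 and 29.2-fold for Cxcl10. Control library 2 lay within the range of MC903, while the other controls lay below every MC903 library. The differences between MC903 with paeonol and MC903 were -2.40 ± 1.14 and -2.29 ± 1.22 and did not pass with all 9 libraries (edgeR adjusted p = 0.177 and 0.225). In the edgeR fit of those 2 groups alone Cxcl9 was called lower with paeonol (-2.39, adjusted p = 0.0485) and Cxcl10 was not called. Without control library 2 and MC903 library 3, Cxcl10 was called higher in MC903 than in control, at 3.06 (edgeR adjusted p = 0.0166). That call is a description, since the members' levels had picked the libraries left out.

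The 6 GTPases, of families that take part in defence against intracellular microbes, were all lower with paeonol than in MC903 by value, with a median log2 difference of -1.27 and 1 call. Gbp2, a guanylate-binding protein gene at GRCm38 chromosome 3, 142620602 to 142638008, stood at 33.5, 19.1 and 19.7 CPM with paeonol, 97.1, 76.9 and 182 CPM in MC903 and 23.9, 137 and 70.0 CPM in control. It fell with paeonol by 2.30 ± 0.69 on the log2 scale (edgeR adjusted p = 0.0495), and all 3 libraries with paeonol lay below all 3 of MC903. The margin is narrow, and the call depended on the setting. DESeq2 also called it (-2.29, adjusted p = 0.00188), as did the edgeR fit of these 2 groups alone (adjusted p = 0.0196). It held in edgeR without control library 1 or 2 (adjusted p = 0.0182 and 0.0337). A filter at a mean CPM of at least 1 and counts divided by 4 kept it too (edgeR adjusted p = 0.0389 and 0.0436). The call ended under scaling by library totals (edgeR adjusted p = 0.0534), without the filter on low counts (edgeR adjusted p = 0.08) and under the replicate block, which takes library numbers as pairs (edgeR adjusted p = 0.128). It also ended when control library 3 or any 1 library of MC903 or of paeonol was left out (edgeR adjusted p between 0.0678 and 0.142), at log2 values between -2.61 and -1.85.

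Iigp1, an immunity-related GTPase of chromosome 18, stood at 35.1, 22.0 and 24.4 CPM with paeonol, 77.5, 46.8 and 129 CPM in MC903 and 27.3, 149 and 57.9 CPM in control. Igtp, of the same family, stood at 22.3, 15.4 and 14.4 CPM with paeonol, 41.7, 27.0 and 70.6 CPM in MC903 and 19.1, 91.6 and 37.6 CPM in control. In both genes the libraries with paeonol were below MC903 without overlap, and control library 2 was the highest of all 9 libraries. Their differences with paeonol were -1.64 ± 0.69 and -1.42 ± 0.64 and did not pass with all 9 libraries (edgeR adjusted p = 0.131 and 0.154). In the edgeR fit of these 2 groups alone Iigp1 was called lower with paeonol (-1.63, adjusted p = 0.0499) and Igtp was not called. Gbp7 (-1.12 ± 0.39), Irgm1 (-0.97 ± 0.51) and Gbp3 (-0.72 ± 0.41) were not called in the edgeR fit of all 9 libraries either. Of these 3 only Gbp3 overlapped between MC903 with paeonol and MC903. Gbp7 was called lower with paeonol by DESeq2 (adjusted p = 0.0232), in the edgeR fit of these 2 groups (adjusted p = 0.017) and by edgeR without control library 1 or 2 (adjusted p = 0.0214 and 0.0356). All 6 remained negative under scaling by library totals (median -1.23) and without MC903 library 3 and control library 2 (median -0.91). Between MC903 and control the GTPases had a median of 0.29 with 5 positive values (4 under scaling by library totals).

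**Figure D3:**
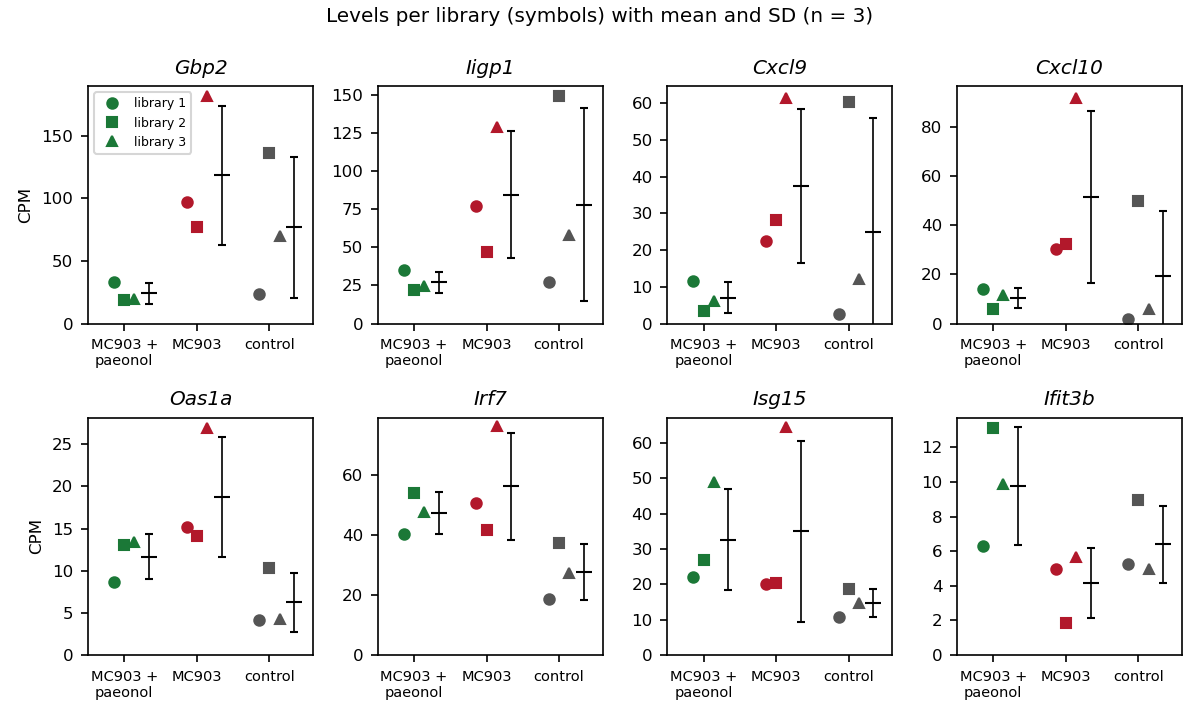
Levels in CPM (vertical axes, linear and starting at 0) of 8 members in the 9 libraries, with MC903 with paeonol left, MC903 in the middle and control right; symbols are libraries 1, 2 and 3, and black bars give mean and SD of n = 3, ending at 0 where they would pass below it. Control library 2 and MC903 library 3 are the highest of their group in all 8 panels, and the 4 genes of the top row are lower in each library with paeonol than in each of MC903.

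The antiviral effectors divided by value into OAS, MX and other genes, which tended to be highest in MC903, and IFIT genes, which were highest with paeonol. Of these 15 genes, 4 were called higher in MC903 than in control, or 26.7%, beside 23.0% of all genes called higher. Between MC903 with paeonol and MC903 their median was -0.43 with 4 positive values, and it was 0.04 with 8 positive without MC903 library 3 and control library 2. Oas1a belongs to the oligoadenylate synthetases, which sense double-stranded RNA and activate RNase L. It stood at 8.64, 13 and 13.4 CPM with paeonol, 15.2, 14.1 and 27.0 CPM in MC903 and 4.16, 10.3 and 4.28 CPM in control. Oas3 stood at 4.36, 6.09 and 4.99 CPM with paeonol, 7.44, 4.99 and 16.2 CPM in MC903 and 2.21, 5.31 and 3.23 CPM in control. Oas1a was above control in every MC903 library, whereas MC903 library 2 overlapped with control for Oas3. The differences between MC903 and control were 1.58 ± 0.42 for Oas1a and 1.41 ± 0.45 for Oas3 (edgeR adjusted p = 0.0146 and 0.0291). Oas1a lies at chromosome 5, 120896256 to 120907521, and Oas3 at 120753098 to 120777661 of the same chromosome. The value of Oas1a is uncertain, since it shares 47.6% of its 75-base stretches with Oas1g.

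Oasl1, an OAS-like gene that limits translation of Irf7, stood at 3.55, 3.19 and 2.19 CPM with paeonol, 6.05, 2.92 and 4.70 CPM in MC903 and 1.296, 2.66 and 2.32 CPM in control. Trim30a, which restrains Toll-like receptor signalling, stood at 12.1, 15.5 and 15.1 CPM with paeonol, 18.9, 16.3 and 22.2 CPM in MC903 and 7.54, 13.6 and 10.7 CPM in control. Each MC903 library exceeded each control for both genes. Oasl1 rose in MC903 by 1.12 ± 0.33 (edgeR adjusted p = 0.0162) and Trim30a by 0.85 ± 0.20 (edgeR adjusted p = 0.00448). Oasl1 is at chromosome 5, 114923240 to 114937915, and Trim30a at chromosome 7, 104409025 to 104465193. Of the 6 calls only that of Trim30a held with each of the 9 libraries left out in turn. The Oas3 call ended without the filter on low counts (edgeR adjusted p = 0.0601), in the fit of MC903 and control alone (edgeR adjusted p = 0.0693) and without control library 1 or 3, MC903 library 3 or paeonol library 3, that of Oasl1 without control library 1 or MC903 library 1, and that of Oas1a without control library 3 (edgeR adjusted p between 0.051 and 0.092).

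The remaining OAS, MX and restriction genes were not called in the edgeR fit of all 9 libraries. Oas2 (0.79 ± 0.29), Mx1 (0.83 ± 0.42), Mx2 (1.28 ± 0.51) and Oasl2 (1.12 ± 0.58) lay higher in MC903 than in control by value, with edgeR adjusted p between 0.0518 and 0.166. GENCODE annotates Mx2 as a polymorphic pseudogene, so its transcript level need not stand for a working protein. DESeq2 called Oas2 (adjusted p = 0.00411) and Mx2 (adjusted p = 0.00841) higher, and both were also called by edgeR without control library 2 or without MC903 library 2. With no library left out, edgeR called Oas2 under the filter at a mean CPM of at least 1 and with counts divided by 4 (adjusted p = 0.0416 and 0.0459). With the size factors of DESeq2 it was called at the very threshold. Rsad2, the radical enzyme viperin, stood at 3.14, 6.22 and 6.12 CPM with paeonol, 7.40, 7.89 and 11.1 CPM in MC903 and 4.02, 7.17 and 4.85 CPM in control. MC903 was above both other groups without overlap for Rsad2, with a difference of -0.77 ± 0.29 for paeonol over MC903 (edgeR adjusted p = 0.0731). With the replicate number as a block it was called lower with paeonol (-0.82, edgeR adjusted p = 0.0224) and higher in MC903 than in control (0.74, edgeR adjusted p = 0.0226), and DESeq2 called it in the same pair of comparisons (adjusted p = 0.0363 and 0.0405). Bst2, the tether of budding virus, differed by -0.45 ± 0.22 and the kinase gene Eif2ak2 by -0.04 ± 0.16 between MC903 with paeonol and MC903.

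The IFIT genes, whose products bind viral RNA, had positive differences in all 4 genes between MC903 with paeonol and MC903. Ifit3 stood at 20.9, 49.1 and 34.3 CPM with paeonol, 18.9, 8.02 and 17.7 CPM in MC903 and 13.4, 28.7 and 14.9 CPM in control. Ifit3b stood at 6.32, 13.1 and 9.91 CPM with paeonol, 4.99, 1.87 and 5.66 CPM in MC903 and 5.25, 8.94 and 5.00 CPM in control. Every library with paeonol exceeded every MC903 library for both genes. The differences were 1.22 ± 0.48 and 1.23 ± 0.43 and did not pass (edgeR adjusted p = 0.103 and 0.0626). DESeq2 called both (adjusted p = 0.0423 and 0.00485). Their counts are uncertain and not separate evidence, because Ifit3 shares 41.1% of its 75-base stretches with Ifit3b and Ifit3b 35.7% with Ifit3. Ifit1 differed by 0.21 ± 0.56 and Ifit2 by 0.32 ± 0.89. Ifit2 was at 0.558 CPM in control library 3, 33 estimated counts, against 8.95 and 16.7 CPM in the other controls. The 4 IFIT genes are neighbours on chromosome 19, between 34550694 and 34650009.

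Among the nucleic acid sensors Dhx58 rose in MC903. It encodes LGP2, a regulator of the RIG-I family, and lies at chromosome 11, 100694884 to 100704271. Dhx58 stood at 10.9, 13.7 and 11.7 CPM with paeonol, 11.3, 11.6 and 16.4 CPM in MC903 and 6.002, 11.1 and 7.20 CPM in control. The lowest MC903 library was just above the highest control, control library 2. The difference was 0.70 ± 0.22 (edgeR adjusted p = 0.0247), and it did not pass under scaling by library totals (0.51, edgeR adjusted p = 0.0877) or without control library 1 or 3 or MC903 library 3. The RNA sensors Ddx58 (RIG-I) and Ifih1 (MDA5) and the helicase Ddx60 differed from MC903 by 0.05 ± 0.17, 0.11 ± 0.24 and 0.17 ± 0.16 with paeonol. Ddx58 stood at 32.4, 42.2 and 42.5 CPM with paeonol, above all controls at 28.0, 29.3 and 30.7 CPM. It was not called in that comparison in the edgeR fit of all 9 libraries without a block (adjusted p = 0.097). DESeq2 (adjusted p = 0.0452) and the replicate block (edgeR adjusted p = 0.0417) called it. So did edgeR in the fit of those 2 groups alone (adjusted p = 0.0223) and without MC903 library 3 or paeonol library 1 (adjusted p = 0.0155 and 0.0398). Zbp1, a sensor of Z-form nucleic acid, stood at 16.8, 19.8 and 14.9 CPM with paeonol, 24.2, 16.2 and 38.7 CPM in MC903 and 6.27, 24.4 and 14.4 CPM in control.

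The last 4 members were not called in the edgeR fit of all 9 libraries. Ifi44, an antiviral gene of low level, stood at 2.28, 1.88 and 2.20 CPM with paeonol, 4.52, 3.18 and 7.70 CPM in MC903 and 0.784, 3.74 and 1.84 CPM in control. It was lower with paeonol than in MC903 without overlap, by value -1.27 ± 0.50 (edgeR adjusted p = 0.0856). DESeq2 called it lower with paeonol than in MC903 (adjusted p = 0.0247) and higher in MC903 than in control (1.27, adjusted p = 0.0174), and edgeR called it lower with paeonol when those 2 groups alone were fitted (adjusted p = 0.0155). Parp14, a mono-ADP-ribosyltransferase, also had no overlap, with -0.49 ± 0.36. Rtp4 and the apoptosis factor Xaf1 differed by -0.18 ± 0.40 and 0.19 ± 0.33.

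By group mean, 17 members with paeonol lay between MC903 and control, 11 lay below both and 10 above both. Those below both were Irf1, Cxcl9, Cxcl10, Rsad2, Parp14 and the 6 GTPases. Those above both were Irf9, Usp18, the 4 IFIT genes, Ifih1, Ddx58, Ddx60 and Xaf1. These are orders of means and not calls, and the control means include control library 2, the highest control in most members. Cxcl10 stood at 13.95, 6.07 and 11.6 CPM with paeonol, above control libraries 1 and 3 at 1.71 and 5.81 CPM. Rsad2 (means 5.16 with paeonol and 5.35 CPM in control) and Parp14 (46.0 and 46.2 CPM) lay only just below control. The means of Irf1, Iigp1 and Igtp with paeonol (30.3, 27.2 and 17.4 CPM) lay below each control library. Per kilobase of exon, Isg15 and Gbp2 had the highest mean levels in MC903, 46.2 and 47.1 CPM per kilobase, while Isg15 stood at 43.2 and Gbp2 at 9.57 CPM per kilobase with paeonol.

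Transcripts of the interferons themselves were close to the detection floor. Of 19 ligand genes 2 passed the filter on counts, Ifng and Ifnz, and neither was called. Ifng, the gene of interferon gamma, held 0, 0 and 4 estimated counts with paeonol, 7, 24 and 56 in MC903 and 0, 88 and 0 in control. Within MC903 the highest Ifng count lay in library 3 and within control in library 2, the libraries in which most members were highest of their group. Below the top library the order did not hold within MC903. Library 2, with 24 Ifng counts against 7 in library 1, was the lowest MC903 library for 30 of 38 members. Across groups the order did not hold either for the median of all members. Relative to each gene's mean it was 0.21 in paeonol library 2, with 0 Ifng counts, and 0.19 in control library 2. By role, the chemokines stood at -1.66 in paeonol library 2 and 1.91 in control library 2, and the GTPases at -0.78 and 1.15. Ifi44, Rtp4, Xaf1 and Parp14 as a group were also higher in control library 2. The sensors, antiviral effectors, signalling and ubiquitin-like genes were higher in paeonol library 2. A link of the members to Ifng was not tested. Values up to 12 counts per library are at the floor used here. The other ligands apart from Ifnz, with up to 23 counts, held at most 11 counts in any library.

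**Figure D4:**
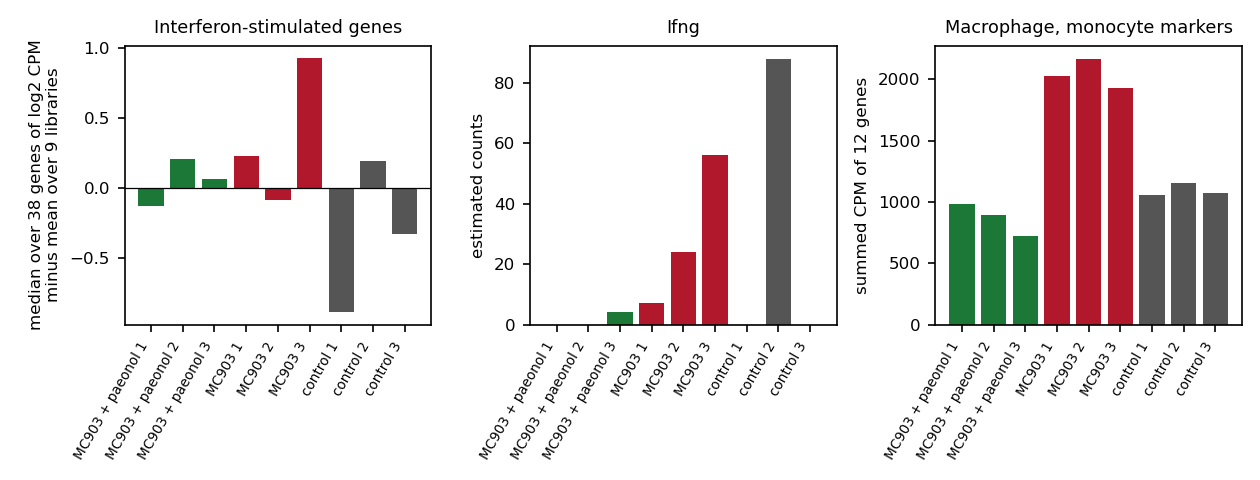
Bars give, for each library, the median over the 38 genes of log2 CPM minus the gene's mean (left), the estimated counts of Ifng (middle) and the summed CPM of 12 macrophage and monocyte markers (right), with MC903 with paeonol, MC903 and control in that order. The left and middle panels are highest in MC903 3 among MC903 libraries and in control 2 among controls; in the right panel MC903 3 is the lowest MC903 library.

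Of 6 interferon receptor genes, 1 was called higher and 1 lower between MC903 with paeonol and MC903: Ifnlr1, of the type III receptor (0.47 ± 0.09), and Ifnar2, of the type I receptor (-0.49 ± 0.10). Between MC903 and control, Ifngr2 was higher (0.50 ± 0.12) and Ifnlr1 lower (-0.39 ± 0.09), and between MC903 with paeonol and control Ifnar2 was lower (-0.43 ± 0.10). Of 21 signalling and sensor genes, 2 were called higher and 9 lower with paeonol than in MC903 (52.4%, beside 29.7% of all genes). Between MC903 and control 8 were called higher and 3 lower (52.4%, beside 46.8%), and between MC903 with paeonol and control 2 higher and 1 lower (14.3%, beside 30.9%). Jak2, the kinase of the interferon gamma receptor and of many cytokine receptors, stood at 61.4, 57.5 and 65.1 CPM with paeonol, 106, 99.7 and 122 CPM in MC903 and 59.7, 64.7 and 56.7 CPM in control. It fell with paeonol by 0.83 ± 0.09 and rose in MC903 by 0.86 ± 0.09 (edgeR adjusted p = 4.22e-05 and 1.12e-05), without the spread seen in the members. The endosomal RNA receptor Tlr7 (-1.29 ± 0.20 with paeonol, 0.88 ± 0.20 in MC903) and the factor Irf5 (-0.57 ± 0.09 and 0.59 ± 0.09) were called in the same pair of comparisons. Cgas, the cytosolic DNA sensor, was higher with paeonol than in control (0.91 ± 0.16, edgeR adjusted p = 0.00133).

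A wider list of 79 other interferon-induced genes had 1 call higher and 15 lower with paeonol than in MC903, a share of 20.3% beside 29.7% of all genes, with a median of -0.43. Between MC903 and control 22 were higher and 3 lower (31.6%, beside 46.8% of all genes), with a median of 0.30. Between MC903 with paeonol and control 5 were higher and 3 lower (10.1%, beside 30.9% of all genes), with a median of -0.03. Ifitm1, which blocks viral entry (-1.62 ± 0.25), and Ifi207, of the DNA-binding interferon-inducible family (-1.24 ± 0.20), fell with paeonol, while Oas1c rose (1.28 ± 0.20). Slfn9, a Schlafen gene, was higher than control both with paeonol (0.99 ± 0.12) and in MC903 (0.68 ± 0.12).

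The ears hold many cell types, and in bulk tissue fewer cells of a type and less RNA per cell cannot be told apart. The 12 macrophage and monocyte markers summed to 719.5 to 985 CPM with paeonol, 1928 to 2167 CPM in MC903 and 1059 to 1158 CPM in control. Of them 10 were called lower with paeonol than in MC903 and 11 higher in MC903 than in control. Within MC903, library 3 had the lowest sum, whereas within control, library 2 had the highest (1158 against 1059 and 1075 CPM). The 12 T and natural killer cell markers summed to 34.9 to 52.4 CPM with paeonol, 50.4 to 78.8 CPM in MC903 and 63.4 to 73.3 CPM in control, with the highest sums of their groups in MC903 library 3 and control library 2. Of the 11 tested, 2 were called higher and 4 lower with paeonol than in MC903, and 5 higher and 3 lower in MC903 than in control. Ncr1, a defining natural killer cell gene, was at 0 in at least 6 libraries. Cd8a, named after its values were seen, stood at 0.530, 0.867 and 0.364 CPM with paeonol, 1.27, 3.47 and 6.81 CPM in MC903 and 0.592, 1.43 and 0.422 CPM in control. It was called lower with paeonol (-2.71) and higher in MC903 (2.24), whereas Trdc, of the gamma-delta T cell receptor, was called higher with paeonol (1.82) and lower in MC903 (-2.91), and Cd3g likewise (0.81 and -1.53). Plasmacytoid dendritic cell markers, of the cells known for type I interferon, summed to 87.1 to 97.4 CPM with paeonol, 83.4 to 86.9 CPM in MC903 and 137.5 to 159.5 CPM in control. These sums were mostly Tcf4 and Cox6a2, while Siglech, the most specific of the list, was at 0.332 to 2.42 CPM in all 9 libraries, so they do not measure these cells. Endothelial markers summed to 127 to 178 CPM with paeonol, 250.2 to 281 CPM in MC903 and 232.5 to 273 CPM in control, and keratinocyte markers to 42770 to 46510, 26120 to 32720 and 18040 to 20960 CPM in the same groups. Dendritic and Langerhans cell markers summed to 105 to 113 CPM with paeonol, 53.2 to 72.2 CPM in MC903 and 110.5 to 128 CPM in control, of which Epcam, also an epithelial gene, gave 69.8 to 76.9, 20.98 to 24.96 and 65.9 to 85.5 CPM. Itgax was called higher in MC903 than in control (0.60) and Cd207 was not called by edgeR (-0.43). In the same order of groups, neutrophil markers summed to 271 to 308, 258 to 375 and 91.9 to 337.5 CPM. Ly6g was at 0 in at least 6 libraries, and the highest control sum lay in library 2. These sums were mostly S100a8 and S100a9. By edgeR, Csf3r (-1.93) and Retnlg (-4.12) were called lower and Cxcr2 (0.82) higher with paeonol than in MC903. S100a8, S100a9, Mpo and Camp were not called there. Csf3r, Retnlg and Cxcr2 were each called higher in MC903 than in control (1.76, 4.06 and 1.56). Skeletal muscle markers summed to 1451 to 2048, 1081 to 1442 and 2975 to 4614 CPM with paeonol, in MC903 and in control. The part of these cell types in the differences of the interferon-stimulated genes was not tested.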

How the data were processed

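Messenger RNA of 9 mouse ear libraries was measured, 3 per treatment label. Per the labels' protocols, Trizol RNA was enriched with oligo(dT) and libraries kept strand through dUTP. The submitters' processing notes list the tools cutadapt, StringTie 1.3.4d and HISAT2 2.0.4 and the build GRCm38. Not given in the sources used here: how each was used, the annotation, and whether counting was stranded. The authors deposited whole numbers per gene, taken here as estimated counts without scaling; low values pile up at multiples of 4, so the floor was set at 12 counts per library, which covers counting error only. Totals were 54264605 to 57745225, and 0 value columns were unused. Replicates differed beyond sampling noise (chi-square over its degrees of freedom 7.03 to 15.8 on counts divided by 4), so none was merged. The test planned for raw counts was applied to these values.

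Symbols come from GENCODE (GRCm38), matched for 55141 of 55401 features. The counts were fitted in edgeR 4.0.16 (R 4.3.3, limma 3.58.1) with TMM scaling (factors 0.942 to 1.09), filterByExpr (minimum count 10, total 15), a robust quasi-likelihood fit with 1 coefficient per group, two-sided F tests and Benjamini-Hochberg adjustment over 21925 genes. SEs were approximated from the difference and its F value. The biological coefficient of variation shared by all genes was 0.214. The calling was tested on simulated data in which each gene had the same dispersion in all groups and genes varied independently. These members differ in both respects, so that test does not show how well they are called. A member was called uncertain where 20% or more of its 75-base stretches occur in another gene. Log2 CPM for SDs used a prior count of 2. Promoter windows are from RefSeq.

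The members, the pathway and marker lists and the tests were chosen with earlier results of these data known. Values in every library are given for each member called and for the 2 uncalled ones with the largest counts; others named were chosen after their values were seen or, outside the members, are among the 3 smallest p of a list and comparison. Alternatives were DESeq2 1.42.0, its size factors, library totals, no filter, a mean CPM of at least 1, fits of 2 groups, counts divided by 4, the replicate number as a block, uncertain members left out and each library left out; leaving out MC903 library 3 and control library 2 together was added after the data were seen.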

Additional observations from a re-analysis of the deposited data

How the results depend on the processing

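The number of members called depended on the fit. Between MC903 with paeonol and MC903 it was 1, against 0 under library totals or without the filter, 6 in the fit of the 2 groups (all lower), 6 with DESeq2 (2 higher, 4 lower), 3 without both MC903 library 3 and control library 2, and 0 to 4 with each library left out. Between MC903 and control it was 6, against 10 with DESeq2, 14 without both libraries and 2 to 16 with each library left out; the 2 came without control library 1 or 3 and the 16 without control library 2. Between MC903 with paeonol and control it was 0, against 1 in the fit of the 2 groups, 5 with DESeq2, 15 without both libraries and 0 to 6 with each left out. With the replicate number as a block the counts were 1, 7 and 2. Over all genes tested, the deviations of same-numbered libraries had correlations of -0.0113 to 0.04, against -0.0322 to 0.0255 for other pairs. These values are small, and pairing in a part of the genes was not tested. The other settings kept each count within 1.5 times.

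Among the 7 members called and Stat2 and Irf9, signs turned between MC903 with paeonol and MC903 alone: without both libraries Irf7 was at 0.04, Dhx58 at 0.08 and Stat2 at 0.24, and with each library left out they ranged over -0.42 to 0.03, -0.21 to 0.08 and -0.35 to 0.24. The cause was not tested. Library totals put the median of all genes at -0.21 between MC903 and control, against -0.02, and left 33 members positive there, against 34, and 24 between MC903 with paeonol and control, against 27. Every fit, that of all 9 libraries included, assumes that the groups in it share 1 spread. The members' median SD was 0.27 with paeonol, 0.55 in MC903 and 0.6 in control. Control libraries thus entered the test of MC903 with paeonol against MC903. Without control library 1 the edgeR adjusted p of Gbp2 there was 0.0182, against 0.0495 with all 9 libraries. The count of 1 member called there depends on this assumption. With 3 libraries per group, a test is limited in what it can show for genes with this spread.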
